A study of Equus caballus with 15 samples.

Results

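The genes described here encode CC chemokines that draw monocytes, macrophages and lymphocytes into tissue. They were chosen as the rows whose gene symbol is CCL2, CCL3, CCL4, CCL5, CCL7, CCL8, CCL11, CCL19, CCL20 or CCL24. Of these 10 symbols, 8 were among the 16932 genes listed, and 7 of the 8 passed the filter on low values that left 11628 genes for testing. CCL4 and CCL7 had no row under these symbols and were not analysed here, and rows without a symbol beside CCL3 and CCL8, given further on by identifier, may or may not hold them. CCL19 was listed but lay under the filter.

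CC chemokines are small secreted proteins named for a pair of adjacent cysteines. They bind G protein-coupled receptors on leukocytes and set the direction in which those cells move. Macrophages are a main source of several of them, and in the inflamed joint the ligands of CCR2 and CCR1 are known for bringing in more monocytes and T cells. A ligand may share a receptor with others, so the genes are taken here by the receptor through which each is best known to act.

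Macrophages were grown over 5 days from equine peripheral blood mononuclear cells with human M-CSF at 30 ng/ml, and libraries of their polyadenylated RNA were made in sets of 3 for each of 5 conditions. The untreated group received neither IL-1ß nor an orthobiologic therapy (OT), and IL-1ß activated macrophages received IL-1ß at 10 ng/ml for 24 h. The OT groups received the same IL-1ß together with an OT at 25% of the medium: medium conditioned by mesenchymal stromal cells (MSC-CM), lysed platelet rich plasma (PRP lysate), or autologous conditioned serum (ACS), a serum preparation that is incubated so that cytokine antagonists accumulate. The study's methods add a wash and another 24 h of culture after the treatment, while the sample labels put collection right after treatment and wash, so the time of collection is uncertain. The blood cells came from 2 horses, which the library labels do not tell apart, and the OTs from 3 donor horses. The study calls the untreated and the IL-1ß libraries technical replicates, so p-values rest on a spread that for these groups may be technical.

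The libraries held 28410733 to 47894066 reads counted on genes, so that 1 read was worth 0.0209 to 0.0352 CPM, the library-scaled count in which all levels below are given. IL-1ß replicate 3 and PRP lysate replicate 1 lay far from the other libraries on the first principal component, and results of the comparison that holds both are also given without them. Of 10 monocyte and macrophage markers 9 were listed, each with a mean above 1 CPM. CD68, a lysosomal protein of macrophages, lay between 1339.7 and 2157 CPM, while CD14, the lipopolysaccharide co-receptor of monocytes, lay between 1.38 and 4.32 CPM. The lymphocyte markers were present as well. The summed level of 10 T cell markers was 1072 to 1965 CPM over all libraries and that of 7 NK and cytotoxic cell markers 215 to 823 CPM. In bulk RNA fewer cells of a type and less RNA per cell cannot be told apart.

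Log2 fold changes below are differences of mean log2(CPM + 1) from 1 limma model of all 15 libraries, with Benjamini-Hochberg adjustment over the 11628 genes of a comparison. Calls needed both an adjusted p-value no larger than 0.05 and a 2-fold or larger change. CPM are not scaled by gene length, so levels are compared between libraries, and a ratio of 2 genes is given only to show how steady it was over the libraries, not which gene was higher.

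CCL3 was higher with PRP lysate and with ACS than with IL-1ß alone or with MSC-CM, and it had the most calls of any member. CCL3 encodes MIP-1α, a ligand of CCR1 on monocytes and T cells. Its row, ENSECAG00000024640, spans positions 37504091 to 37514732 of chromosome 11 (EquCab3.0). CCL3 was at 1419, 1307 and 2172 CPM in untreated macrophages and at 841, 796 and 1158 CPM with IL-1ß alone. It was at 846, 694 and 528 CPM with MSC-CM, at 3216, 3489 and 3358 CPM with PRP lysate, and at 2628, 2375 and 2204 CPM with ACS. The order of the groups was PRP lysate, ACS, untreated, IL-1ß and MSC-CM, and neighbours in this order had ranges that did not overlap, except IL-1ß and MSC-CM.

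With PRP lysate CCL3 rose from a mean of 932 ± 197 CPM with IL-1ß alone to 3354 ± 136 CPM (SD, n = 3), a ratio of 3.60. The log2 fold change was 1.87 (SE 0.211, limma adjusted p = 0.000265). CCL3 was the only member of the 7 called in this comparison, where 3.09% of all genes tested were called and 1.07% were called higher. Without IL-1ß replicate 3 and PRP lysate replicate 1 the log2 fold change of CCL3 was 2.06 (limma adjusted p = 0.000172), a fit chosen after the data were seen. CCL3 was called in each of the 16 alternative fits of this comparison.

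With ACS CCL3 rose to 2402 ± 213 CPM, 2.58 times the IL-1ß mean, with a log2 fold change of 1.38 (SE 0.211, limma adjusted p = 0.00415). Of the 7 members, 1 was called higher and 1 lower with ACS, against 2.21% of all genes called, 1.23% higher and 0.98% lower. The 3 PRP lysate libraries lay above the 3 ACS libraries. The log2 difference between PRP lysate and ACS was 0.48 with a 95% confidence interval from 0.03 to 0.94, and it was not called (limma adjusted p = 0.842). In this comparison 0.0946% of all genes were called and 0 of the 7 members were, in limma as in edgeR and DESeq2, while 1 member had an unadjusted p under 0.05. CCL3 and CCL20 were the 2 members with all PRP lysate libraries above all ACS libraries, against 6.66% of all genes.

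Against MSC-CM, at 689.5 ± 159 CPM, CCL3 was higher by 2.31 on the log2 scale with PRP lysate (SE 0.211, limma adjusted p = 8.14e-05) and by 1.82 with ACS (limma adjusted p = 0.00123). Between MSC-CM and IL-1ß alone the log2 fold change of CCL3 was -0.44, with a 95% confidence interval from -0.90 to 0.02 (limma adjusted p = 0.705). CCL3 thus had values on both sides of the IL-1ß level among the OTs, with only the higher values past the test against IL-1ß.

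The untreated level of CCL3 was between these extremes. IL-1ß alone gave a log2 fold change of -0.79 against untreated macrophages (95% confidence interval -1.25 to -0.34, limma adjusted p = 0.144), and all 3 IL-1ß libraries lay below all 3 untreated libraries. CCL3 was called lower with MSC-CM than in untreated macrophages (log2 fold change -1.23, limma adjusted p = 0.0191) and higher with PRP lysate (1.07, limma adjusted p = 0.0157). Both calls against untreated macrophages were lost in some fits. That with MSC-CM was lost without untreated replicate 1, untreated replicate 3, MSC-CM replicate 2 or MSC-CM replicate 3 (limma adjusted p up to 0.0994). That with PRP lysate was lost without untreated replicate 1, untreated replicate 2 or PRP lysate replicate 3 (limma adjusted p up to 0.0983), and with edgeR (adjusted p = 0.0759) or DESeq2, whose fold change was under 2. With a replicate block the adjusted p of limma was 0.210 for MSC-CM and 0.115 for PRP lysate.

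**Figure D1:**
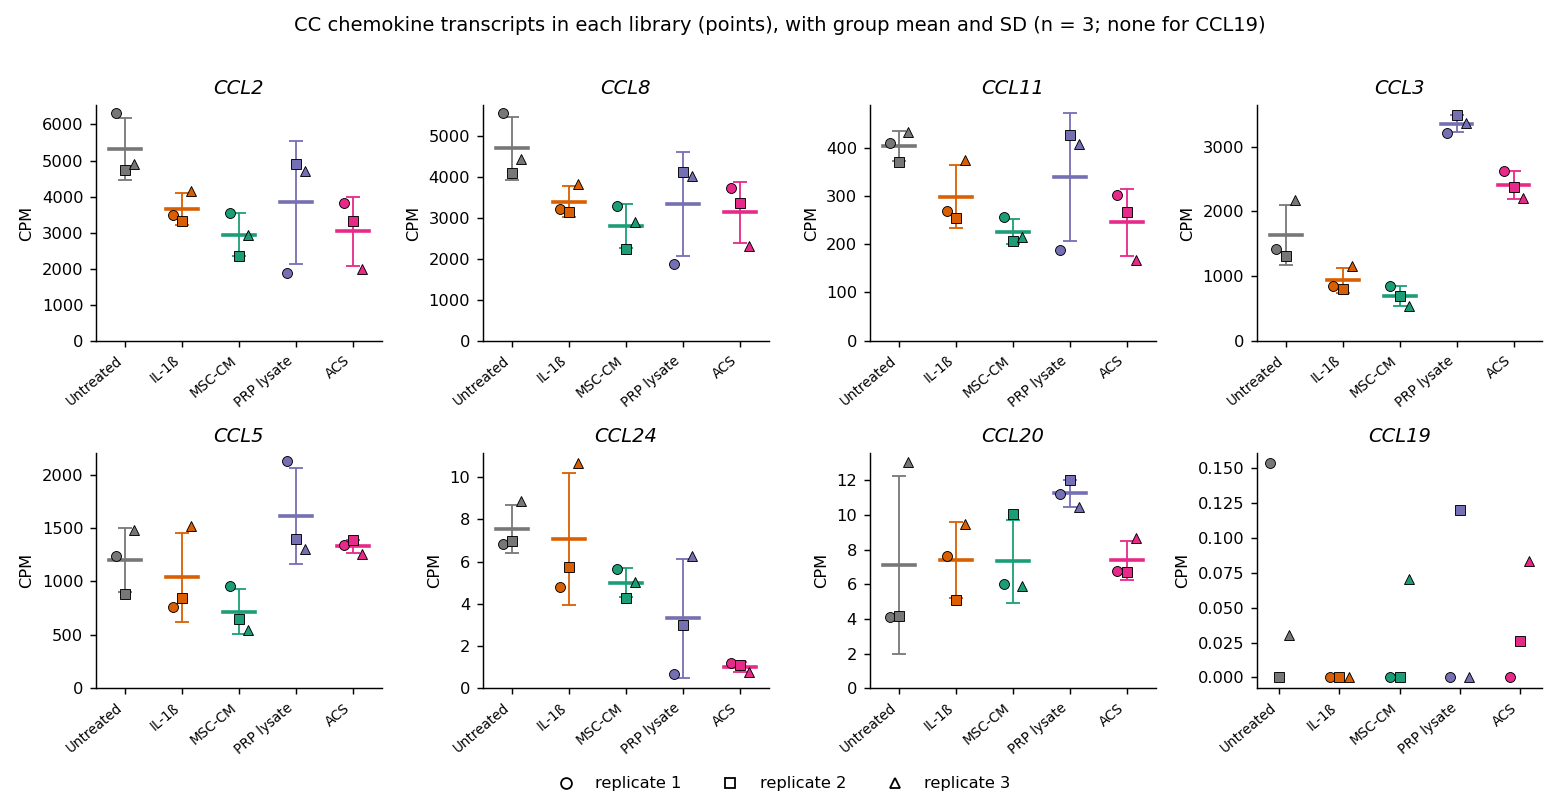
Each panel plots the CPM of a CC chemokine transcript (vertical axis, linear) in the 15 libraries by condition, with a marker shape for each replicate, and bars give the group mean and SD (n = 3), which are left out for CCL19. The PRP lysate libraries of CCL3 sit between 3216 and 3489 CPM, above all others, and those of ACS for CCL24 sit between 0.752 and 1.2 CPM, while PRP lysate replicate 1 is the lowest library of CCL2, CCL8 and CCL24.

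A further row, ENSECAG00000022992, spans positions 37489249 to 37521561 of chromosome 11 and holds the whole CCL3 row inside it. The strand setting of the counting is not stated, so reads of these overlapping rows cannot be told apart with certainty. The level of ENSECAG00000022992 was 0.153 to 0.205 times that of CCL3 in every library, and its log2 fold change with PRP lysate was 1.84 (limma adjusted p = 0.000570). With the reads of both rows summed, a choice made after the data were seen, the log2 fold change of CCL3 with PRP lysate against IL-1ß was 1.86 (limma adjusted p = 0.000292).

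CCL5, or RANTES, is a ligand of CCR1 and CCR3 and is made in quantity by T cells and NK cells as well as by macrophages. Its row, ENSECAG00000024888, spans positions 37634697 to 37640784 of chromosome 11. CCL5 was at 1235, 884 and 1478 CPM in untreated macrophages and at 759, 842 and 1521 CPM with IL-1ß alone. It was at 954, 653 and 547 CPM with MSC-CM, at 2126, 1395 and 1308 CPM with PRP lysate, and at 1339, 1385 and 1261 CPM with ACS. The group means stood in the same order as those of CCL3, but no neighbours in that order had ranges apart. The 3 PRP lysate libraries and the 3 ACS libraries all lay above the 3 MSC-CM libraries.

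CCL5 was called only between PRP lysate and MSC-CM, where the means were 1609.9 ± 449 and 718 ± 211 CPM and the log2 fold change was 1.17 (SE 0.288, limma adjusted p = 0.0378). With CCL3 it made 2 of 7 members called higher there, against 2.61% of all genes called and 0.8% called higher. The call stood close to the threshold. It was lost without any of MSC-CM replicates 2 and 3 and PRP lysate replicates 1, 2 and 3, and the limma adjusted p reached 0.193. It was kept by DESeq2 and lost with edgeR (adjusted p = 0.0934) and with a replicate block over the groups that share numbers (limma adjusted p = 0.147). A fit of these groups alone that paired libraries by number kept the call (limma adjusted p = 0.00393). That pairing was chosen after the data were seen and may not be real. Against IL-1ß alone the log2 fold change of CCL5 was 0.66 with PRP lysate (95% confidence interval 0.04 to 1.29, limma adjusted p = 0.244) and 0.42 with ACS (-0.20 to 1.04, limma adjusted p = 0.351).

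PRP lysate replicate 1, the library highest in CCL5, also had the highest summed level of the T cell markers, 1965 CPM, and of the NK and cytotoxic cell markers, 823 CPM. IL-1ß replicate 3, second in CCL5, had 1964 and 525 CPM. In the other PRP lysate libraries the T cell sum was 1101 and 1259 CPM and the NK and cytotoxic sum 371 and 408 CPM. In the MSC-CM libraries, low in CCL5, the T cell sum was 1753 to 1839.9 CPM and the NK and cytotoxic sum 311 to 370.1 CPM. Of the T cell markers, CD4 differed most in its mean between MSC-CM and PRP lysate, at 457.6 and 204.0 CPM. CD3E was at 301.4 and 296.0 CPM, and CD28 alone had the lower mean with MSC-CM (74.4 and 94.8 CPM). The part of these cells in the CCL5 difference was not tested.

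CCL2 and CCL8, the CCR2 ligands, were lower in every OT group and with IL-1ß alone than in untreated macrophages by their means, and none of these differences was called. CCL2, or MCP-1, is the main recruiter of classical monocytes, and CCL8, or MCP-2, acts on CCR2 and further receptors. Their rows lie on chromosome 11 at positions 38886881 to 38888825 (CCL2, ENSECAG00000023949) and 38814074 to 38816073 (CCL8, ENSECAG00000038853). CCL2 was at 6313, 4738 and 4901 CPM in untreated macrophages and at 3494.5, 3324 and 4155 CPM with IL-1ß alone. It was at 3534, 2344 and 2929 CPM with MSC-CM, at 1880.0, 4909 and 4719 CPM with PRP lysate, and at 3825, 3314 and 1976 CPM with ACS. Every library of the IL-1ß, MSC-CM and ACS groups lay below every untreated library, while the PRP lysate group held the lowest library of all and 1 library within the untreated range.

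The log2 fold change of CCL2 against untreated macrophages was -0.53 with IL-1ß alone (95% confidence interval -1.26 to 0.19, limma adjusted p = 0.508). It was -0.86 with MSC-CM (-1.59 to -0.14, limma adjusted p = 0.215) and -0.85 with ACS (-1.57 to -0.13, limma adjusted p = 0.490). Against IL-1ß alone the value was -0.33 for MSC-CM, -0.32 for ACS and -0.05 for PRP lysate, and each interval held 0. For PRP lysate the ratio of the means, 1.05, was on the other side of 1 from the log2 value, since replicate 1 pulled the mean of logs down. Without IL-1ß replicate 3 and PRP lysate replicate 1 the log2 fold change of CCL2 was 0.50 (limma adjusted p = 0.284).

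CCL8 ran beside CCL2. CCL8 was at 5581, 4095.5 and 4458 CPM in untreated macrophages, at 3213, 3146 and 3832 CPM with IL-1ß alone, and at 3299.6, 2243 and 2901 CPM with MSC-CM. It was at 1887, 4142 and 4042 CPM with PRP lysate and at 3729.8, 3371 and 2315 CPM with ACS. Against untreated macrophages its log2 fold change was -0.47 with IL-1ß, -0.75 with MSC-CM and -0.60 with ACS, with limma adjusted p-values from 0.197 to 0.654. Within each library the level of CCL2 was 0.853 to 1.19 times that of CCL8, a ratio that was lowest in ACS replicate 3 and highest in PRP lysate replicate 2, while CCL2 itself ranged from 1880.0 to 6313 CPM.

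CCL11 and CCL24 are eotaxins, ligands of CCR3 known for drawing eosinophils. Over the 15 libraries their log2 levels had a Pearson correlation of 0.607, and of 0.837 with group means removed, given as a description. These values are not particular to the eotaxin pair. For CCL24 and CCL2 they were 0.642 and 0.761, and for CCL24 and CCL8 0.584 and 0.772. CCL11 (ENSECAG00000036715) lies between CCL8 and CCL2 at positions 38851936 to 38872047 of chromosome 11. CCL11 was at 409.8, 371 and 432 CPM in untreated macrophages, at 268, 255 and 374 CPM with IL-1ß alone, and at 256, 207 and 215 CPM with MSC-CM. It was at 187, 426 and 408 CPM with PRP lysate and at 302, 267 and 167 CPM with ACS. The libraries that were low in CCL2 and CCL8 within the PRP lysate and ACS groups were low in CCL11 too. CCL11 had a log2 fold change of -0.84 with MSC-CM against untreated macrophages (95% confidence interval -1.47 to -0.21, limma adjusted p = 0.165) and of -0.76 with ACS (-1.39 to -0.13, limma adjusted p = 0.472).

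CCL24 fell with ACS. Its row, ENSECAG00000032357, spans positions 11028731 to 11044799 of chromosome 13. CCL24 was at 6.84, 6.95 and 8.87 CPM in untreated macrophages, at 4.81, 5.74 and 10.6 CPM with IL-1ß alone, and at 5.66, 4.29 and 5.03 CPM with MSC-CM. It was at 0.672, 2.99 and 6.27 CPM with PRP lysate and at 1.2, 1.11 and 0.752 CPM with ACS. These levels rest on few reads, with 25 in PRP lysate replicate 1 and 36 to 44 in the ACS libraries, against 173 to 308 with IL-1ß alone. All 3 ACS libraries lay below every library of the IL-1ß, MSC-CM and untreated groups, and the PRP lysate libraries spread from below the ACS range to above the IL-1ß minimum.

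Between ACS and IL-1ß alone the mean of CCL24 went from 7.06 ± 3.14 to 1.02 ± 0.236 CPM, a ratio of 0.144. On the log2(CPM + 1) scale, which shrinks changes at such levels, it fell by 1.94 (SE 0.414, limma adjusted p = 0.0230). The call was kept by edgeR and DESeq2 on recovered reads and was lost without IL-1ß replicate 2 or 3 or any ACS library (limma adjusted p up to 0.101). Against untreated macrophages CCL24 fell by 2.08 with ACS (limma adjusted p = 0.0486), where 0.37% of all genes were called and 0.224% called lower, and this call was lost with edgeR and when any of the 6 libraries was left out (limma adjusted p up to 0.232). Against MSC-CM the log2 fold change with ACS was -1.57 (limma adjusted p = 0.0823). With PRP lysate it was -1.08 against IL-1ß alone (95% confidence interval -1.97 to -0.18, limma adjusted p = 0.181). Without IL-1ß replicate 3 and PRP lysate replicate 1 that value was -0.22 (limma adjusted p = 0.689). Without PRP lysate replicate 3 it was -1.58 and was called (limma adjusted p = 0.0339). Against untreated macrophages CCL24 had -1.22 with PRP lysate (limma adjusted p = 0.177), and -1.72 without PRP lysate replicate 3, which was called (limma adjusted p = 0.0360).

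The markers of eosinophils, basophils and mast cells, on which the eotaxin receptor is found, were summed over the 7 of 9 that were listed. Their sum was 11.3 to 15.2 CPM with ACS, 20.1 to 31.4 CPM with IL-1ß alone and 7.27 to 11.4 CPM with PRP lysate. It was 23.3 to 25.7 CPM with MSC-CM and 11.2 to 20.53 CPM in untreated macrophages, a range that overlaps that of ACS although their CCL24 levels do not. Among these markers CCR3, EPX and MS4A2 were under 1 CPM on average. The part of such cells in the CCL24 levels was not tested.

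CCL20, or MIP-3α, is the ligand of CCR6 and draws Th17 cells, B cells and immature dendritic cells. Its row, ENSECAG00000006764, spans positions 15780629 to 15783430 of chromosome 6. CCL20 was at 4.09, 4.18 and 13.0 CPM in untreated macrophages, at 7.62, 5.09 and 9.47 CPM with IL-1ß alone, and at 6.0, 10.1 and 5.90 CPM with MSC-CM. It was at 11.2, 12 and 10.5 CPM with PRP lysate and at 6.76, 6.72 and 8.69 CPM with ACS. The 3 PRP lysate libraries lay above every IL-1ß, MSC-CM and ACS library and above 2 of the 3 untreated libraries.

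CCL20 was not called in any comparison. With PRP lysate its log2 fold change was 0.58 against IL-1ß alone (95% confidence interval -0.18 to 1.34, limma adjusted p = 0.439) and 0.77 against untreated macrophages (0.01 to 1.53, limma adjusted p = 0.378). Without untreated replicate 3, the library at 13.0 CPM, the latter was 1.25 and was called (limma adjusted p = 0.0317). For IL-1ß, MSC-CM and ACS the means lay between 7.32 and 7.39 CPM, next to 7.10 ± 5.15 CPM in untreated macrophages.

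CCL19, the ligand of CCR7 that guides T cells and mature dendritic cells in lymph nodes, was listed with few reads. Its row, ENSECAG00000013412, spans positions 50398530 to 50539628 of chromosome 23. CCL19 had 6, 0 and 1 reads in untreated macrophages, 0 in each IL-1ß library, 0, 0 and 3 with MSC-CM, 0, 5 and 0 with PRP lysate, and 0, 1 and 4 with ACS. A count of 0 allows up to 3 reads, or 0.0626 to 0.106 CPM depending on the library. A two-sided exact permutation test of 3 libraries against 3 was run for CCL19. It cannot give a p under 0.1, so no conclusion is drawn from it. In the limma fit with no filter on low values, CCL19 was called in 0 of the 10 comparisons.

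**Figure D2:**
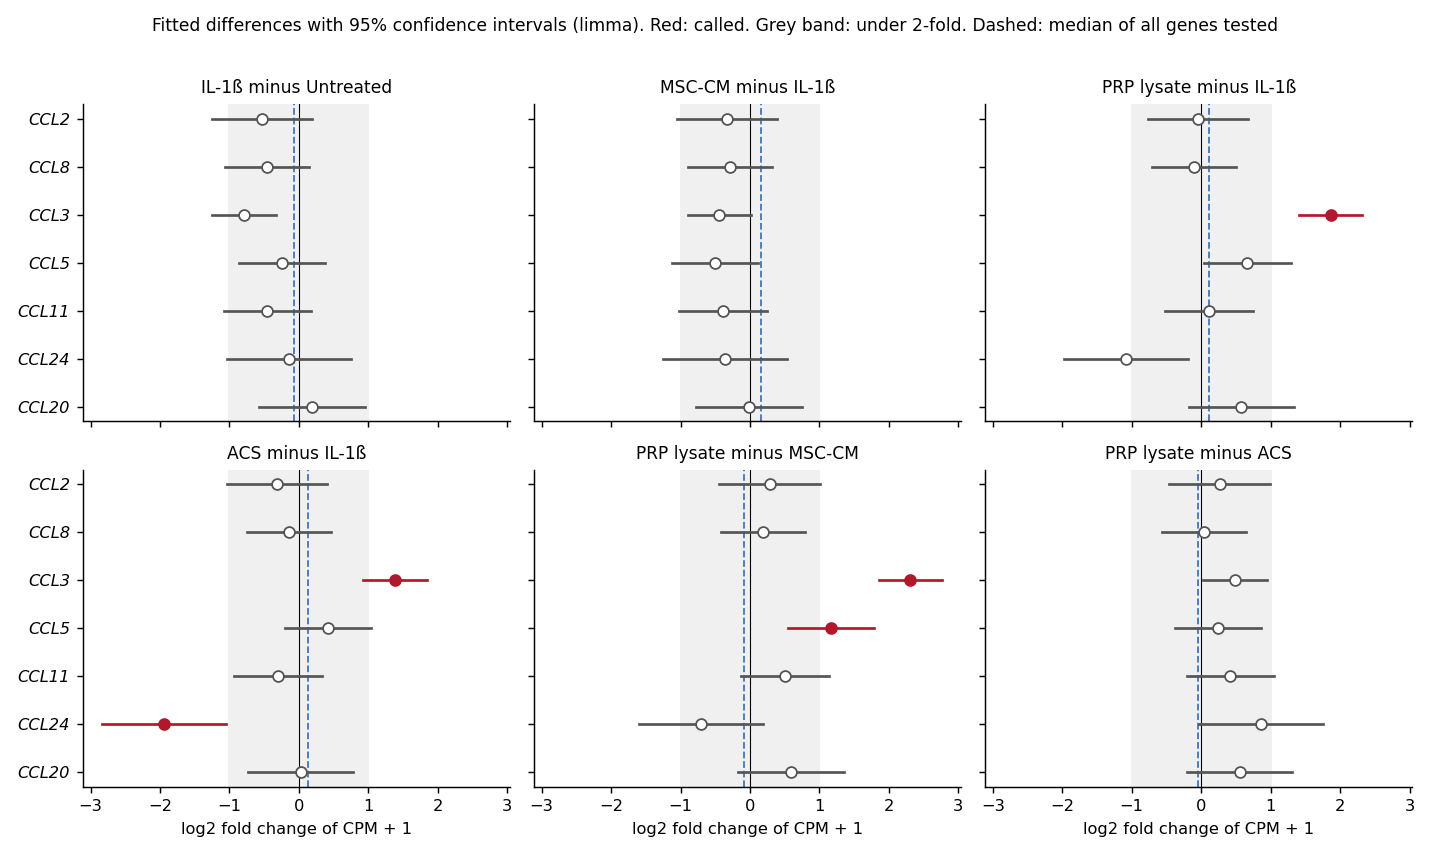
Each panel plots the log2 fold change of CPM + 1 (horizontal axis) of the 7 tested members with its 95% confidence interval from limma, red where called, over a grey band of changes under 2-fold and a dashed line at the median of all genes tested. CCL3 stands at 1.87 with PRP lysate and 1.38 with ACS against IL-1ß, CCL24 at -1.94 with ACS, and CCL3 and CCL5 at 2.31 and 1.17 between PRP lysate and MSC-CM.

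Taken as a list, the 7 tested members had few calls. IL-1ß alone against untreated macrophages gave 0 calls among them, in limma, edgeR and DESeq2, where limma called 0.292% of all genes and 1 member had an unadjusted p under 0.05. CCL2, CCL8 and CCL3 had all IL-1ß libraries below all untreated ones, 3 of 7 members against 8.22% of all genes. The median log2 fold change of the members was -0.45 and that of all genes -0.07, with 6 members below 0. CCL20 was the exception at 0.19.

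MSC-CM against IL-1ß alone gave 0 calls among the members in limma, edgeR and DESeq2, with 0 at an unadjusted p under 0.05. Of all genes 0% were called by limma, and 0.361% passed at an unadjusted p with the 2-fold threshold. All 7 log2 fold changes were under 0, from -0.50 for CCL5 to -0.01 for CCL20, with a median of -0.37, while 71.2% of all genes were above 0 with a median of 0.16. With RLE size factors the median of all genes was 0.00 and that of the members -0.52, and all 7 members were under 0. CCL20 turned above 0, to at most 0.16, without IL-1ß replicate 1 or 3 or MSC-CM replicate 1 or 3. No member had MSC-CM and IL-1ß libraries that did not overlap, where 8.79% of all genes did. The comparison shares its IL-1ß libraries with those of PRP lysate and ACS.

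With PRP lysate against IL-1ß alone the members split into 4 above and 3 below 0 with a median of 0.12, next to 0.11 for all genes. This split rested on the libraries that stand apart. Without IL-1ß replicate 3 and PRP lysate replicate 1, 6 members were above 0 and 1, CCL24, below, with a median of 0.67 next to 0.02 for all genes. In that fit the log2 fold change was 0.36 for CCL8 (limma adjusted p = 0.363), 0.67 for CCL11 (0.0670), 0.76 for CCL5 (0.0689) and 0.76 for CCL20 (0.301), and CCL3 remained the only member called. CCL3 and CCL20 had libraries that did not overlap, 2 of 7 against 8.5% of all genes higher in this way. With ACS the median was -0.14, next to 0.13 for all genes, and CCL3 and CCL24 had libraries that did not overlap, where 26.2% of all genes did. The value of CCL20 with ACS, 0.03, turned below 0 with RLE size factors, TMM factors, edgeR or DESeq2, and without IL-1ß replicate 2 (-0.19) or ACS replicate 3.

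Against untreated macrophages MSC-CM had 1 of 7 members called, CCL3, where 0.662% of all genes were called and 0.181% lower. CCL2, CCL8, CCL3, CCL11 and CCL24 had all MSC-CM libraries below all untreated ones, 5 of 7 members against 8.93% of all genes, and the median of the members was -0.75 next to 0.10 for all genes. With PRP lysate 1 member was called, where 1.6% of all genes were called and 0.267% higher. With ACS 4 members lay wholly below the untreated libraries, namely CCL2, CCL8, CCL11 and CCL24, against 10% of all genes, and CCL3 lay wholly above, as 16.3% of all genes did. These comparisons share the untreated libraries. Between ACS and MSC-CM 1 member was called, CCL3, where 1.23% of all genes were called and 0.593% higher. There 6 members were above 0, with a median of 0.08 next to -0.04 for all genes. Between PRP lysate and MSC-CM 6 were above 0 as well, with a median of 0.50 next to -0.09. Between PRP lysate and ACS all 7 were above 0, with a median of 0.42 next to -0.04.

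Across the 15 libraries CCL2, CCL8 and CCL11 varied together, and CCL3 and CCL5 varied together. The log2 levels of CCL2 and CCL8 had a Pearson correlation of 0.985, and CCL11 followed them at 0.953 and 0.919. CCL3 and CCL5 had a correlation of 0.852. CCL3 and CCL2 had one of 0.124. With group means removed the first of these values was 0.993 and that of CCL3 and CCL5 was 0.750. The points share libraries and conditions, so these values describe the 15 libraries and carry no test.

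**Figure D3:**
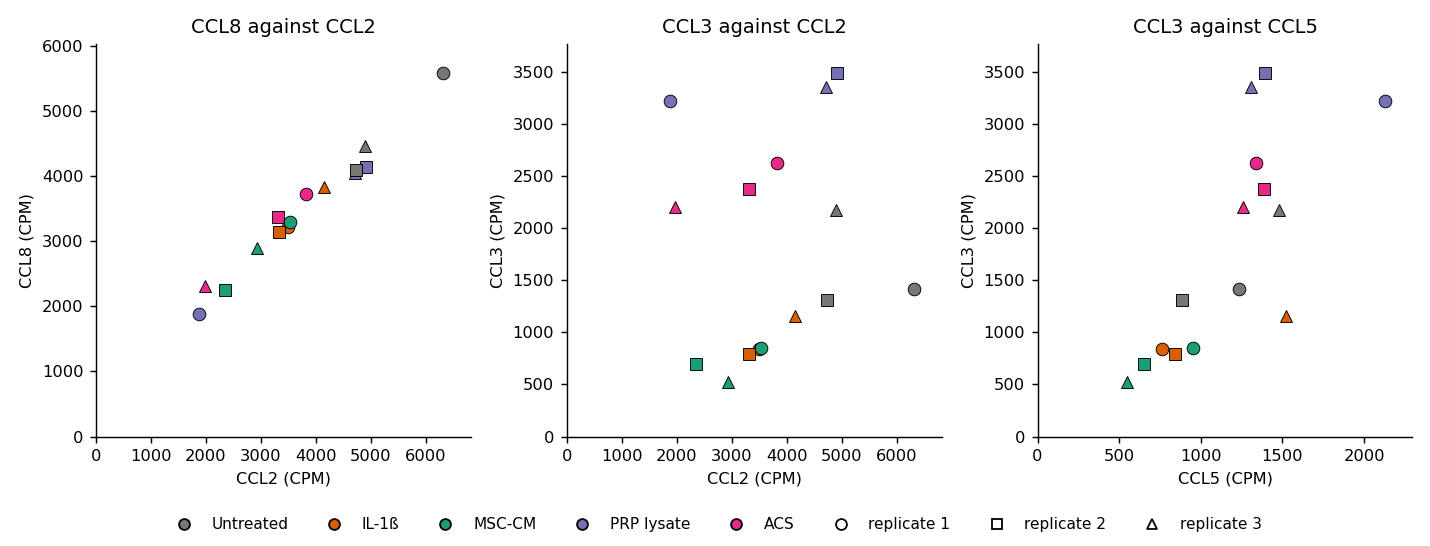
Each panel plots the CPM of a CC chemokine against that of another in the 15 libraries, colored by condition and shaped by replicate. CCL8 against CCL2 runs along a line from about PRP lysate replicate 1 (1880.0 and 1887 CPM) to untreated replicate 1 (6313 and 5581 CPM), while in CCL3 against CCL2 the PRP lysate and ACS libraries lie above the others at every CCL2 level.

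Of all 11628 genes, the 3 with the highest correlation to CCL2 over the 15 libraries were CCL8, CCL11 and TCN2 (0.914), which encodes the vitamin B12 carrier transcobalamin, and CCL8 had CCL2, CCL11 and TCN2 (0.906). For CCL11 they were CCL2, CCL8 and ENSECAG00000023677 (0.895). For CCL3 they were the overlapping row ENSECAG00000022992 (0.992), ENSECAG00000001900 (0.977) and CD82 (0.957), a tetraspanin. For CCL5 they were GSTM3 (0.962), CACTIN (0.936) and TXN (0.933), which encodes thioredoxin, with lower Spearman values of 0.757, 0.886 and 0.782. For the other members the Spearman values of the genes named here were at least 0.775. CCL24 was most like ENSECAG00000023126 (0.902), CXCL14 (0.881), itself a chemokine, and ENSECAG00000031100 (0.879). CCL20 was most like ENSECAG00000036873 (0.805), B4GALNT4 (0.794) and MTERF2 (0.785).

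Of the 8 listed members, 5 sit in 2 stretches of chromosome 11, CCL3 to CCL5 over 136694 bp and CCL8 to CCL2 over 74752 bp. The other rows within or beside them were looked at after their values were seen. Of the 4 rows between CCL3 and CCL5, ENSECAG00000030869 was under the filter and not tested. The other three, ENSECAG00000024790, ENSECAG00000024882 and CCL14, a ligand of CCR1, were called lower with PRP lysate and with ACS than with IL-1ß alone, and each of these 6 calls was lost in at least 1 alternative fit. CCL14 was at 19.3, 33.0 and 43.4 CPM with IL-1ß alone, at 1.80, 5.16 and 5.53 CPM with PRP lysate, and at 7.45, 7.53 and 5.60 CPM with ACS. It fell by 2.69 on the log2 scale with PRP lysate (SE 0.387, limma adjusted p = 0.00119, kept in 14 of 15 alternatives) and by 2.0 with ACS (limma adjusted p = 0.0145), kept in 9 of 13 (adjusted p up to 0.0708).

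ENSECAG00000024790 had a mean of 2753 CPM with IL-1ß alone, 1044 CPM with PRP lysate and 1075 CPM with ACS. Its log2 fold change with PRP lysate was -1.35 (limma adjusted p = 0.0184) and turned to -0.88 without IL-1ß replicate 3 and PRP lysate replicate 1 (limma adjusted p = 0.0621), where CCL14 was at -2.05 and ENSECAG00000024882 at -1.04, both called. With ACS it was -1.29 (limma adjusted p = 0.0323), a call kept in 1 of 6 fits with a library left out (adjusted p up to 0.144). ENSECAG00000024882 had log2 fold changes of -1.75 with PRP lysate and -1.77 with ACS (limma adjusted p = 0.0201 and 0.0268). With a library left out, its call with PRP lysate was kept in 4 of 6 fits (limma adjusted p up to 0.0692) and that with ACS in 2 of 6 (up to 0.133). CCL3 and CCL5 on either side of these rows had values above 0 in the same comparisons.

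Beside CCL8 lie ENSECAG00000036873 and ENSECAG00000034282, which differed in direction with PRP lysate. ENSECAG00000036873 rose by 1.86 on the log2 scale with PRP lysate against IL-1ß (limma adjusted p = 0.0205, up to 0.0848 with a library left out), and ENSECAG00000034282 had a log2 fold change of -2.17 (limma adjusted p = 0.00426). CCL8, CCL11 and CCL2 had values between -0.10 and 0.12 in this comparison, and between 0.36 and 0.67 without IL-1ß replicate 3 and PRP lysate replicate 1, where ENSECAG00000036873 was at 2.19 and ENSECAG00000034282 at -1.47. In the RefSeq table, of another horse assembly and used for names and order alone, 1 protein-coding gene lies between CCL11 and CCL2 where the deposited values have no row.

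**Figure D4:**
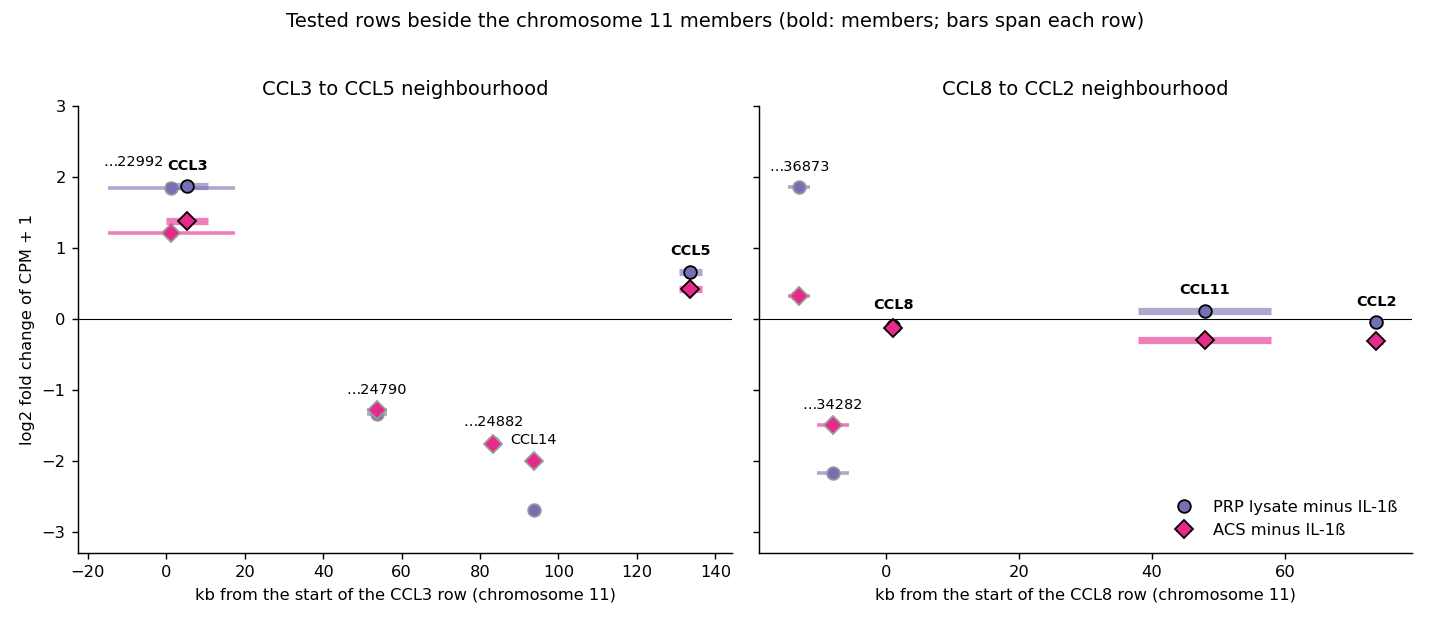
Both panels plot the log2 fold change of CPM + 1 (vertical axis) of each tested row against its distance in kb from the start of the CCL3 row (left) or CCL8 row (right), with bars spanning the rows, circles for PRP lysate minus IL-1ß and diamonds for ACS minus IL-1ß. CCL3 and the row overlapping it stand at 1.87 and 1.84 with PRP lysate, and CCL14 and its neighbours lie between -2.69 and -1.29 in both comparisons.

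The receptors of these ligands were read from a list of 13 typical and atypical CC chemokine receptors, of which 12 were listed and 8 tested. CCR6, the receptor of CCL20, was the only one called in any comparison. The calls were with PRP lysate against IL-1ß alone, MSC-CM and untreated macrophages, where 3.09%, 2.61% and 1.6% of all genes were called. CCR6 had a mean of 15.2 ± 5.99 CPM with IL-1ß alone, 13.3 ± 4.64 CPM with MSC-CM, 12 ± 3.08 CPM in untreated macrophages, 6.77 ± 1.63 CPM with ACS and 3.40 ± 1.01 CPM with PRP lysate. All 3 PRP lysate libraries lay below all others. Its log2 fold change with PRP lysate was -1.83 against IL-1ß alone (SE 0.338, limma adjusted p = 0.00642), -1.67 against MSC-CM (limma adjusted p = 0.0121) and -1.56 against untreated macrophages (limma adjusted p = 0.0258). With a library left out, the call against IL-1ß alone was kept in 6 of 6 fits, that against MSC-CM in 4 of 6 (limma adjusted p up to 0.0807) and that against untreated macrophages in 2 of 6 (up to 0.135). Over all 15 alternatives the first was kept in 13 (adjusted p up to 0.148), and it was -1.99 without IL-1ß replicate 3 and PRP lysate replicate 1. Its B cell markers stood beside it, with a sum over 6 listed genes of 12.2 to 30.2 CPM with PRP lysate, 27.3 to 48.6 CPM with IL-1ß alone and 14.1 to 20.1 CPM with ACS. The sum was 16.0 to 23.5 CPM in untreated macrophages and 24.7 to 31.2 CPM with MSC-CM, both overlapping the PRP lysate range, while their CCR6 levels did not. The part of B cells in the CCR6 levels was not tested.

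CCR1, a receptor of CCL3 and CCL5, and CCR2, the receptor of CCL2 and CCL8, were not called. CCR1 had a mean of 316 ± 45.1 CPM in untreated macrophages, 149 ± 95.5 CPM with IL-1ß alone, 191 ± 36.1 CPM with MSC-CM, 241 ± 139 CPM with PRP lysate and 269.8 ± 9.78 CPM with ACS. CCR2 lay between 7.44 ± 1.29 CPM with PRP lysate and 20.4 ± 7.57 CPM with MSC-CM. CCR3, the eotaxin receptor, had a mean under 1 CPM in all groups and was not tested.

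**Figure D5:**
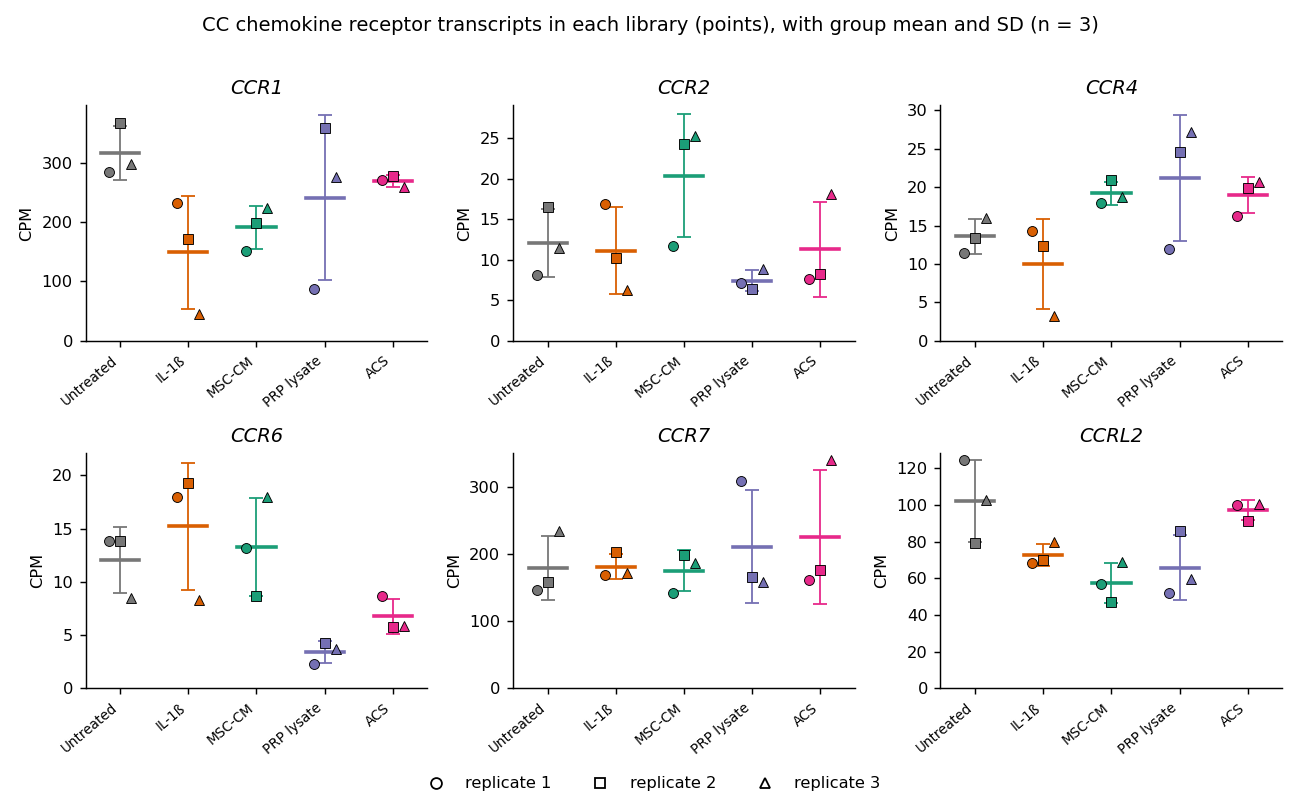
Each panel plots the CPM of a CC chemokine receptor transcript (vertical axis, linear) in the 15 libraries by condition, with bars for the group mean and SD (n = 3). The PRP lysate libraries of CCR6 sit between 2.28 and 4.26 CPM, below all others, and CCR1 in IL-1ß replicate 3 and PRP lysate replicate 1 sits at 44.6 and 87.8 CPM, below the rest of the libraries.

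The other CC chemokines, without CCL17 and CCL22, made a list of 12 symbols of which 5 were listed and 1, CCL14, was tested. Of 22 genes that carry the signal below chemokine receptors, such as GNAI2, ARRB2 and DOCK2, 21 were tested. In the 10 comparisons limma called 0 of them and 0% to 3.09% of all genes, so that 0 says little about this list. From 1 to 9 of them had an unadjusted p under 0.05. The list medians lay from -0.31 to 0.14, next to -0.09 to 0.16 for all genes. Of 20 NF-kB feedback and target genes 18 were tested. SOD2, the mitochondrial superoxide dismutase, was called lower with PRP lysate than with IL-1ß alone, at 435 ± 88.6 against 1246 ± 406 CPM (log2 fold change -1.48, limma adjusted p = 0.00849, and -1.73 without IL-1ß replicate 3 and PRP lysate replicate 1). ICAM1, an adhesion molecule of leukocytes and endothelium, was called higher with ACS, at 1470.4 ± 162 against 727.8 ± 75.3 CPM (1.01, limma adjusted p = 0.00222). That call sat at the 2-fold threshold and was kept in 4 of 6 fits with a library left out and in 6 of all 13 alternatives. With PRP lysate ICAM1 had a log2 fold change of 0.79 (limma adjusted p = 0.00418), under the fold threshold, and 0.80 without the same libraries. SOD2 was also called lower with PRP lysate than with MSC-CM (-1.32), and ICAM1 higher with ACS than with MSC-CM (1.05), each kept in 4 of 6 fits with a library left out. The other 16 were not called in any comparison, where 0% to 3.09% of all genes were called.

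The summed level of 8 dendritic cell markers was higher where CCL3 was highest, but not in untreated macrophages. It was 929.8 to 1212 CPM with PRP lysate and 942.1 to 1275 CPM with ACS, against 647 to 733 CPM with IL-1ß alone and 644 to 726 CPM with MSC-CM. In untreated macrophages it was 600.0 to 907 CPM, which overlaps the IL-1ß range, although every untreated CCL3 value lay above every IL-1ß value. In that list CD83 and FSCN1 were higher by their means with PRP lysate and ACS, while FLT3 had a mean of 0.951 CPM with PRP lysate, 2.53 CPM with ACS and 4.50 CPM with IL-1ß alone, LAMP3 had 1.49, 4.97 and 5.36 CPM in the same order, and XCR1 and CLEC9A were under 1 CPM on average. The part of such cells in the CCL3 difference was not tested. The sum of monocyte and macrophage markers was 2276 to 4459 CPM with PRP lysate, 3820.2 to 5081 CPM with ACS and 3439 to 5977 CPM with IL-1ß alone, with 2276 CPM in PRP lysate replicate 1. Endothelial markers summed to 62.6 to 98.0 CPM with PRP lysate, 119 to 153 CPM with ACS and 252 to 518 CPM with IL-1ß alone. PECAM1, which leukocytes also express, made up most of that sum, with means of 63.7, 110.1 and 399.8 CPM in the same order, while TEK was at 18.4, 20.8 and 10.9 CPM and VWF and CLDN5 were under 1 CPM. Platelet markers summed to 12.2 to 41.4, 11.6 to 17.8 and 11.9 to 14.2 CPM, most of it PPBP, and fibroblast and MSC markers to at most 3.15 CPM in any library.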

How the data were processed

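Polyadenylated RNA of equine monocyte-derived macrophages was measured in 15 libraries of 5 groups. The authors trimmed reads at a Phred score of 20, removed adapters with cutadapt, aligned with STAR 2.7.3 to EquCab3.0, counted reads per Ensembl gene with HTSeq in Partek Flow, and deposited CPM, counts scaled to the library total. The strand setting and the gene filter are not given in the sources used here. All columns were matched to samples by their headers.

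Genes whose mean over the libraries reached 1 CPM entered limma 3.58.1 (trend) on log2(CPM + 1), pseudocount 1, in R 4.3.3. Error values are SD over 3 libraries unless named SE. Each CPM value was turned back into reads with the worth of 1 read in its library (99.6% of values above 0 within 0.1 of a whole read) for edgeR 4.0.16 and DESeq2 1.42.0, which served as alternatives. The limma, edgeR and DESeq2 fits with their default settings were tested on data simulated for PRP lysate against IL-1ß. The other settings and comparisons were not simulated. The libraries differed from each other well beyond sampling noise.

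The members, the gene lists and the tests were chosen with earlier results of these data known. Named genes are all members, at most the 2 largest rises and 2 largest falls called in a pathway list, and the 3 genes most correlated with each member. Rows beside the members on chromosome 11 were added after their values were seen. Deviations from the group means of same-numbered libraries correlated at -0.775 to 0.635, and for all 3 numbers above 0.1 only between MSC-CM and PRP lysate. An alternative fit therefore took those numbers as pairs, a choice made from these data. The values do not show that the numbers match. MSC-CM replicate 2 correlated at 0.255 with PRP lysate replicate 2 and at 0.388 with replicate 3. MSC-CM replicate 3 correlated at 0.419 with PRP lysate replicate 3 and at 0.470 with replicate 2. Alternatives were another pseudocount (0.1), no filter, RLE and TMM scaling, the count tools, only the groups compared, a replicate block, other thresholds, and leaving out each library. Sequences of the members were not used here. A gene of the receptor list is not reported here.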

Additional observations from a re-analysis of the deposited data

How the results depend on the processing

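Of 976 alternative values of single members, 931 kept their side of the threshold, among them 46 that were never called and changed sign, 40 lost a call, 5 gained one, and 0 of the called values reversed. The 4 calls of CCL3 in which PRP lysate or ACS was compared with IL-1ß or MSC-CM were kept in every alternative run. The number of members called was 1 in PRP lysate against MSC-CM with no filter on low values, RLE size factors, TMM factors, edgeR on recovered reads, only the 2 groups compared, or the replicate block, where CCL5 was lost. It was 0 in PRP lysate against untreated macrophages with RLE, TMM, edgeR, DESeq2, only the 2 groups compared or the replicate block. It was 0 in ACS against untreated macrophages with a pseudocount of 0.1, no filter on low values or edgeR. It was 0 in MSC-CM against untreated macrophages with the replicate block, 1 in ACS against IL-1ß with only the 2 groups compared, and 2 in ACS against MSC-CM with DESeq2 or only the 2 groups compared, where CCL24 was gained. At an unadjusted p with the fold threshold it was 2 in PRP lysate against IL-1ß, PRP lysate against untreated macrophages and ACS against MSC-CM. The cause of these changes was not tested.

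With a library left out in turn the number called was 0 to 1 in MSC-CM and 0 to 2 in PRP lysate against untreated macrophages, 0 in each fit of ACS against untreated macrophages, 1 to 2 in PRP lysate and in ACS against IL-1ß, and 1 to 2 in PRP lysate against MSC-CM. It was 0 in each fit of IL-1ß against untreated macrophages, MSC-CM against IL-1ß and PRP lysate against ACS, and 1 in each fit of ACS against MSC-CM. The replicate block, which held no ACS library because their labels carry no numbers, changed no other call of a member, and the pairing of MSC-CM and PRP lysate libraries alone, added after the data were seen, changed none. Of 1242 alternative values of the other genes named, 1114 kept their side of the threshold, 118 lost a call and 10 gained one, with 0 reversed. Over all genes limma called 34 in IL-1ß against untreated macrophages and DESeq2 167, and the other DESeq2 counts against limma were 684 and 359 (PRP lysate against IL-1ß), 574 and 257 (ACS against IL-1ß), 2 and 0 (MSC-CM against IL-1ß), 484 and 304 (PRP lysate against MSC-CM), 292 and 143 (ACS against MSC-CM), 57 and 11 (PRP lysate against ACS), and 171 and 77, 319 and 186, and 116 and 43 (MSC-CM, PRP lysate and ACS against untreated macrophages), where edgeR called 21 in the last. These counts come from gene sets of unlike size, 16932 genes for DESeq2, 13675 for edgeR and 11628 for limma. With only the 2 groups compared, calls of limma fell to 56 in PRP lysate and 48 in ACS against IL-1ß and rose to 324 in ACS against MSC-CM. With the replicate block they were 196 in PRP lysate against IL-1ß and 5 in MSC-CM against untreated macrophages. Depth limits CCL19, at 0 to 6 reads, and CCL24, at 25 to 308 reads.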

Other observations

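CC chemokines outside the members that lay under 1 CPM on average are given here as values, chosen after they were seen and not tested. CCL26, or eotaxin-3, a CCR3 ligand like CCL24, ranged from 0.271 to 1.34 CPM with ACS and from 0.502 to 0.810 CPM with PRP lysate, from 0 to 0.889 CPM with IL-1ß alone, from 0 to 0.136 CPM with MSC-CM and from 0.0561 to 0.230 CPM in untreated macrophages. All ACS and PRP lysate libraries lay above all untreated and MSC-CM libraries in CCL26. CCL25, a ligand of CCR9, ranged from 0 to 1.64 CPM over all libraries, CCL28 from 0 to 0.421 CPM, and CCL27 from 0 to 0.277 CPM.

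CCRL2, an atypical receptor that binds chemerin, had a mean of 102 ± 22.5 CPM in untreated macrophages (SD, n = 3) and 97.3 ± 5.39 CPM with ACS. It had 72.8 ± 6.14 CPM with IL-1ß alone, 65.8 ± 17.7 CPM with PRP lysate and 57.5 ± 11 CPM with MSC-CM. CCR7, the receptor of CCL19, lay between 141 and 341 CPM over all libraries, and CCL19 itself had at most 6 reads.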
